A study of Mus musculus with 4 samples.

Results

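H/ACA box small nucleolar RNAs (snoRNAs) were examined through the mouse genes named Snora followed by a number, together with the genes named Scarna followed by a number, which encode small RNAs of the Cajal body (scaRNAs). The array reads transcripts in probe groups called transcript clusters. A gene was taken where a cluster carried it alone, and a gene with several such clusters was read from its brightest. This gave 24 genes, 18 named Snora and 6 named Scarna, of 30701 named genes with a cluster of their own. The platform's gene table holds 47 such symbols on 48 clusters, and the remaining 23 symbols occur only on clusters shared with other genes. The rule uses gene names and mean levels, not differences between arrays, but it was set with earlier results of these data known. The H/ACA name does not hold for every gene: Scarna2, Scarna9 and Scarna17 are, from their human counterparts, box C/D RNAs, and Scarna6 and Scarna10 carry both kinds of box, so the medians are also given without those 3 C/D RNAs where that matters.

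RNA came from bone marrow spun out of mouse tibias after 2 weeks of treatment, and it was hybridised as biotin-labelled cRNA to 4 Affymetrix arrays. There was 1 array each for astragalus (the root Astragalus membranaceus), electro-acupuncture, cisplatin (a platinum compound used in chemotherapy) and control. Marrow of 6 samples was mixed before extraction, without a statement that this was done for each group, and an array of mixed marrow carries no spread between animals. The labels used here give no strain, age, sex or dose, and it is unstated if mice given astragalus or electro-acupuncture had cisplatin as well. Each of those arrays was therefore set against both cisplatin and control. With 1 array per group no test was possible and no p-value is given, so every difference below lacks a replicate check, and precision is limited by having 4 arrays.

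H/ACA RNAs fold into hairpins with a short hinge, box H, between them and end in the letters ACA just before the 3′ end. Each pairs with a target RNA and places it in the active site of dyskerin, which turns a chosen uridine into pseudouridine. The partner proteins are dyskerin (gene Dkc1), Nop10, Nhp2 and Gar1. Targets are mainly ribosomal RNA for the snoRNAs of the nucleolus and spliceosomal snRNA for the scaRNAs. In mammals most of these RNAs are cut from introns of host genes, many of which make ribosomal proteins or other parts of the translation machinery.

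Sequence was at hand for Snora19, because RefSeq places a microRNA hairpin over its whole span (assembly GRCm38.p6, minus strand, chr19:60774329-60774397). The hairpin is shown because its letters occur at a second place on the same chromosome, Mir3084-1 at chr19:24942235-24942303, and because Snora19 is the gene with the largest positive difference between electro-acupuncture and cisplatin. Capitals mark the ACA that begins 6 bases before the end of the annotated Snora19, which leaves 3 bases after it. A hairpin on the plus strand at chr1:185242975-185243043 covers the 3′ end of Snora36b, a gene whose cluster is shared with Mir664, and shows the same arrangement.
Mir3084-2 over Snora19, and Mir3084-1: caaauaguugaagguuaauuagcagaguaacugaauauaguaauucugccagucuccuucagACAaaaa
Mir664, over the end of Snora36b: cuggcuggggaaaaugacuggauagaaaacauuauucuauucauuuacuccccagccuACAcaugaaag
The 2 Mir3084 hairpins of 69 bases are identical, so hybridisation cannot tell the 2 places apart. The cluster that carries Snora19 alone and the one that lists Snora19 with Mir3084 had equal levels on each of the 4 arrays.

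All levels are log2 values per cluster as deposited. The median of the means of all 65956 clusters is 5.235. Array medians were 5.15 in astragalus, 5.31 in electro-acupuncture, 5.26 in cisplatin and 5.27 in control, and the 5th to 95th percentile range was 7.20 in astragalus, wider than on any other array (at most 6.83). Marrow markers were present: all 7 neutrophil genes checked had levels of at least 10.34 on every array, Alas2 of red cells was at 14.64 or above, and the 5 skeletal muscle genes stayed at or under 5.92. All 4 bone genes listed were highest in cisplatin and lowest in control, with Sparc at 11.13 in astragalus, 11.00 in electro-acupuncture, 12.35 in cisplatin and 9.40 in control. All 3 B cell genes were highest in control, with Cd79b at 9.87 in astragalus, 9.33 in electro-acupuncture, 9.22 in cisplatin and 10.54 in control. The neutrophil granule genes Mpo and Elane and all 3 platelet genes were lowest in control, with Mpo at 13.75 in astragalus, 13.25 in electro-acupuncture, 12.80 in cisplatin and 11.70 in control, and Pf4 at 17.20 on the first 3 arrays and 15.24 in control. The other neutrophil genes did not share this order. Camp (17.92 in cisplatin, 18.29 in control) and Ltf (16.11 and 16.39) were lowest in cisplatin. Ngp stayed at 18.77 to 18.78, and S100a8 and S100a9 were at 19.93 on every array. The part of such tissue or cell differences in the results below was not tested, and in bulk marrow fewer cells of a type and less RNA per cell cannot be told apart.

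Of the 24 genes, 23 lay at or above 5.235 on every array. The exception was Snora35, which lies within the serotonin receptor gene Htr2c and is known as a brain snoRNA. Its levels were 4.43 in astragalus, 3.99 in electro-acupuncture, 4.48 in cisplatin and 4.54 in control. Htr2c was also low, between 4.65 and 4.91. Brightness depends on the probes, so it does not rank the RNAs by abundance. The brightest cluster was that of Scarna9, a guide for the U2 snRNA in humans, at 15.97, 15.97, 15.95 and 16.33 in astragalus, electro-acupuncture, cisplatin and control. Medians over the 24 genes were 7.48 in astragalus, 7.91 in electro-acupuncture, 7.46 in cisplatin and 8.10 in control.

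**Figure D1:**
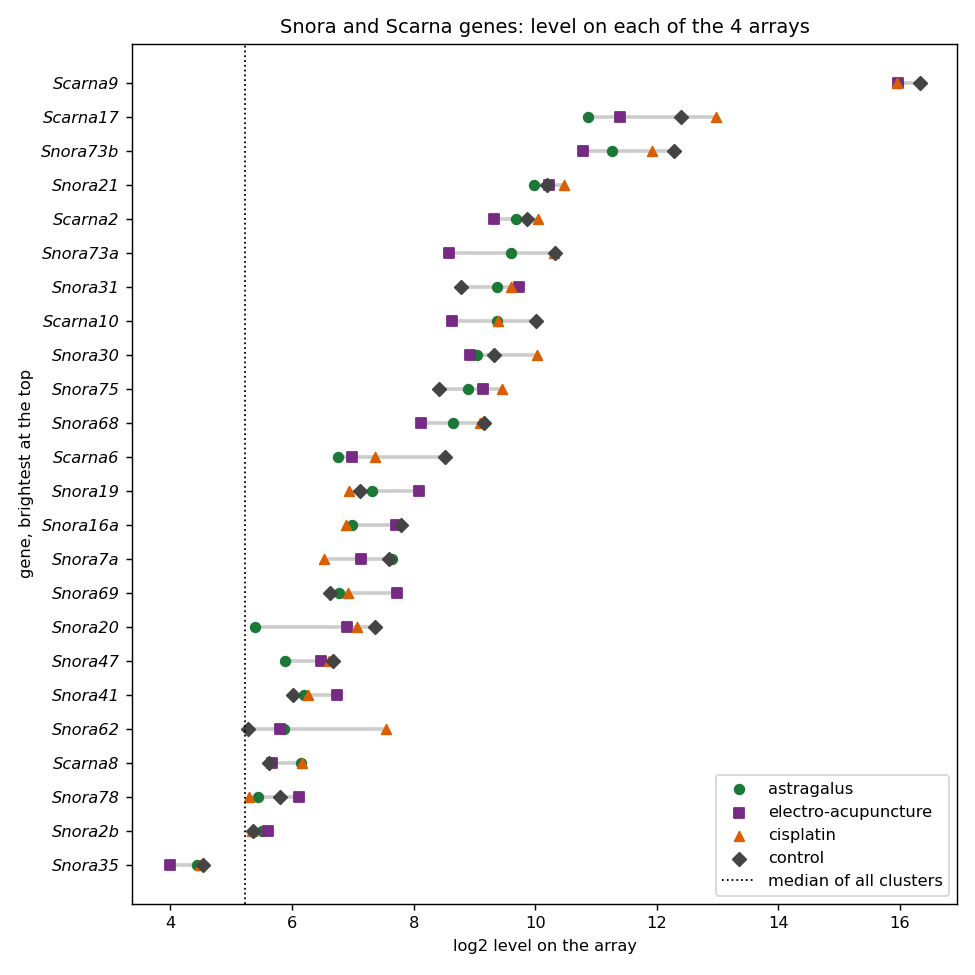
Log2 level of each Snora and Scarna gene on the 4 arrays, with 1 point per array, a grey line over the range and a dotted line at the median of all clusters, 5.235. Snora62 is set apart by its cisplatin array at 7.55, Snora20 by its astragalus array at 5.39, and Snora73a by its electro-acupuncture array at 8.58.

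Cisplatin against control asks which of these RNAs differ after the drug. As a group they did not lie to one side: 10 were higher and 14 lower in cisplatin, with a median log2 difference of -0.04 against 0.00 over all named genes. Single genes differed in both directions. Snora62 and Snora75 were at least 2-fold higher (1.21% of all named genes were), and Scarna6 and Snora7a at least 2-fold lower (0.599%). These are 4 of 24 genes (16.7%), against 1.81% of all named genes, but box C/D snoRNA genes gave 8 of 44 (18.2%).

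Snora62, also called E2, has a host in Rpsa, the gene of a protein of the small ribosomal subunit. Its log2 level was 5.87 in astragalus, 5.81 in electro-acupuncture, 7.55 in cisplatin and 5.28 in control. The cisplatin array alone was high, 4.82-fold over control, and the other 3 lay within 0.59 of each other near the median of all clusters. Snora75 sits in Ncl, the gene of the nucleolar protein nucleolin. It was at 8.89, 9.15, 9.46 and 8.41 in astragalus, electro-acupuncture, cisplatin and control, with control the lowest and cisplatin 2.07-fold higher than it. Ncl itself was at 14.85, 14.84, 14.38 and 13.36 in the same order, a log2 difference of 1.02 between cisplatin and control.

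Snora7a, whose host Rpl32 encodes a protein of the large ribosomal subunit, was at 7.65 in astragalus, 7.14 in electro-acupuncture, 6.52 in cisplatin and 7.60 in control. Cisplatin was the lowest array, 2.11-fold below control. Scarna6, a Cajal body RNA with a host in the autophagy gene Atg16l1, was at 6.76, 6.99, 7.36 and 8.52 in astragalus, electro-acupuncture, cisplatin and control. Control was the highest, and cisplatin was 2.23-fold below it. Just outside the 2-fold line was Snora16a, at 6.89 in cisplatin and 7.79 in control, and just inside it was Snora75. Further differences between cisplatin and control were 0.83 for Snora31, 0.71 for Snora30, 0.57 for Scarna17, 0.55 for Scarna8, -0.62 for Scarna10, -0.51 for Snora78 and -0.38 for Scarna9.

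Set against cisplatin, the astragalus array shows which of these RNAs differ from their level under the drug. Most of the RNAs, 18 of 24, were lower in astragalus. So were 16650 of 30701 named genes, 22 of 44 box C/D snoRNA genes and 742 of 914 snRNA genes. The 24 RNAs had a median log2 difference of -0.30, against -0.03 over all named genes and -0.02 over the 44 box C/D snoRNA genes. At least 2-fold lower were Scarna17, Snora20 and Snora62, which is 12.5% against 1.3% of all named genes, and 1 gene, Snora7a, was at least 2-fold higher (4.17% against 1.15%). In either direction this is 4 of 24 genes (16.7%), against 2.45% of all named genes and 25% of box C/D snoRNA genes. Without the 3 box C/D scaRNAs the median was -0.24, with 16 of 21 genes lower.

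Scarna17, which guides modification of spliceosomal RNA in humans, was at 10.87 in astragalus, 11.39 in electro-acupuncture, 12.97 in cisplatin and 12.40 in control. Astragalus and electro-acupuncture were below both others, and astragalus was 4.29-fold below cisplatin and 2.89-fold below control. Snora20, whose host Tcp1 encodes a subunit of the CCT chaperonin, was at 5.39 in astragalus, 6.91 in electro-acupuncture, 7.07 in cisplatin and 7.37 in control. Astragalus alone was low, close to the median of all clusters, 3.20-fold below cisplatin, 3.94-fold below control and 2.87-fold below electro-acupuncture. Tcp1 went the other way, at 10.20, 9.98, 9.49 and 9.17 in astragalus, electro-acupuncture, cisplatin and control. Snora62 was 3.20-fold below cisplatin but 1.51-fold above control, so this comparison and that of cisplatin with control share the single high cisplatin array. The same holds for Snora7a with its low cisplatin array: it was 2.19-fold above cisplatin, and its level in astragalus differed from control by 0.05.

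Snora30 lay just outside the 2-fold line. Its host Srcap encodes a chromatin remodeller. Snora30 was at 9.04 in astragalus, 8.93 in electro-acupuncture, 10.03 in cisplatin and 9.32 in control, a difference of -0.99 between astragalus and cisplatin. Cisplatin was again the highest array. Other differences between astragalus and cisplatin were -0.73 for Snora47, -0.71 for Snora73a, -0.66 for Snora73b, -0.60 for Scarna6, -0.57 for Snora75 and -0.50 for Snora21. On the higher side, Snora19 (0.37), Snora2b (0.17), Snora78 (0.14), Snora16a (0.10) and Scarna9 (0.02) stayed far from 2-fold.

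In electro-acupuncture against cisplatin, 15 of 24 RNAs were lower and 9 higher, with quartiles of -0.81 and 0.32 around a median log2 difference of -0.28. The median was 0.02 over all named genes and 0.08 over the box C/D snoRNA genes. Lower in this comparison were 13460 of 30701 named genes, 20 of 44 box C/D snoRNA genes and 680 of 914 snRNA genes. At least 2-fold lower were Snora62, Snora73a, Scarna17, Snora73b and Snora30, 5 of 24 (20.8%) against 1.55% of all named genes. Snora19 was the 1 gene at least 2-fold higher, against 0.834% of all named genes. The 6 genes together are 25% of the 24, against 2.38% of all named genes and 25% of box C/D snoRNA genes. Among the 18 Snora genes alone the median was -0.15, so its size rests in part on the Scarna genes, 5 of which were lower.

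Snora73a and Snora73b are 2 copies of the RNA called U17 or E1, which is needed for cutting the precursor of the small ribosomal subunit RNA and is unusual among H/ACA RNAs in that role. Both lie within the long noncoding RNA gene Snhg3. Snora73a was at 9.60 in astragalus, 8.58 in electro-acupuncture, 10.31 in cisplatin and 10.33 in control. Snora73b was at 11.26 in astragalus, 10.79 in electro-acupuncture, 11.92 in cisplatin and 12.28 in control. In both copies the electro-acupuncture array was the lowest and astragalus the next. Electro-acupuncture was 3.32-fold below cisplatin and 3.36-fold below control for Snora73a, and 2.19-fold and 2.81-fold below them for Snora73b.

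Snora73b has another cluster of its own, which read 11.00, 10.66, 11.86 and 12.40 in astragalus, electro-acupuncture, cisplatin and control. Its levels were 0.06 to 0.26 away from those of the first cluster, and the arrays kept their order. This shows how far 2 clusters of the same RNA differ on one array and says nothing of the spread between animals. The copies are close relatives, so signal may be shared between them. A cluster that lists Snora73a together with its host Snhg3 read 10.11, 10.30, 10.20 and 9.89 in the same array order, with electro-acupuncture the highest, opposite to the clusters of the small RNAs alone.

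Snora19 was at 7.31 in astragalus, 8.09 in electro-acupuncture, 6.94 in cisplatin and 7.12 in control. Electro-acupuncture was the highest array, 2.22-fold over cisplatin and 1.96-fold over control. Its host Eif3a, a translation initiation factor gene, was at 14.22, 13.93, 13.95 and 13.69 in the same order. Snora69, in the ribosomal protein gene Rpl39, had the same high array: 6.77 in astragalus, 7.73 in electro-acupuncture, 6.92 in cisplatin and 6.62 in control. It was 1.75-fold over cisplatin and 2.16-fold over control. Snora16a (0.82), Snora78 (0.81), Snora7a (0.62) and Snora41 (0.47) were also higher in electro-acupuncture than in cisplatin. Just outside the line on the lower side was Snora68, at 8.65 in astragalus, 8.13 in electro-acupuncture, 9.09 in cisplatin and 9.16 in control.

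**Figure D2:**
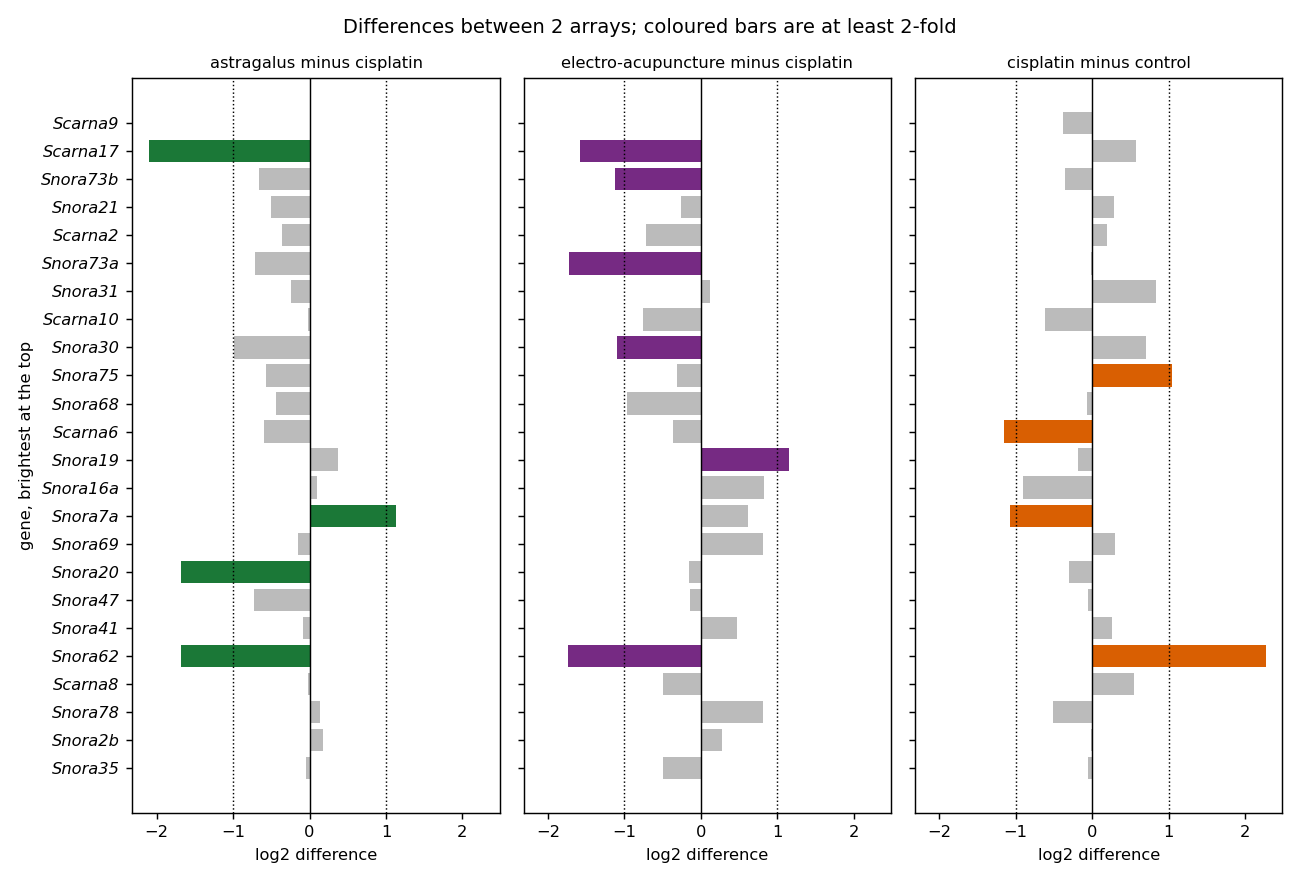
Log2 differences of the 24 genes between 2 arrays, in 3 panels, brightest gene at the top; coloured bars are at least 2-fold and dotted lines mark 2-fold. Astragalus and electro-acupuncture share the long bars of Scarna17 and Snora62 against cisplatin, whereas those of Snora20 and Snora7a are coloured in the astragalus panel and those of Snora73a, Snora73b, Snora30 and Snora19 in the electro-acupuncture panel.

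Against control, no gene was at least 2-fold higher in astragalus (background 3.49%) and 4 were at least 2-fold lower (1.67% of all named genes): Snora20, Scarna6, Scarna17 and Snora73b. Scarna17 and Snora20 were at least 2-fold below cisplatin as well. The 4 genes are 16.7%, against 5.16% of all named genes in either direction. Box C/D snoRNA genes gave 12 of 44 (27.3%) against control in astragalus and as many in electro-acupuncture, and snRNA genes 25.2% and 32.8%, so the share of H/ACA genes was not above that of these classes in astragalus. Astragalus was 3.39-fold below control for Scarna6 and 2.03-fold below it for Snora73b. The median was -0.24, with 15 of 24 genes lower, against 17072 of 30701 named genes and 738 of 914 snRNA genes. In electro-acupuncture 6 genes were at least 2-fold lower than in control, against 1.85% of all named genes, namely Snora73a, Scarna6, Snora73b, Scarna10, Snora68 and Scarna17. Snora69 was the 1 gene at least 2-fold higher (background 2.43%), which makes 7 of 24 (29.2%) in either direction, against 4.28% of all named genes. With quantile normalization these 7 split into 3 higher and 4 lower: Snora19 and Snora31 reached 2-fold higher, and Scarna17 (-0.96) and Snora68 (-0.99) no longer reached it. Scarna10, in the condensin gene Ncapd2, was at 9.37 in astragalus, 8.63 in electro-acupuncture, 9.39 in cisplatin and 10.01 in control, 2.60-fold below control in electro-acupuncture. The median against control was -0.28 in electro-acupuncture but -0.08 without the 3 box C/D scaRNAs. These comparisons use the same astragalus and electro-acupuncture arrays as those against cisplatin.

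Among the bright members, 2 more differed little. Snora21, in the ribosomal protein gene Rpl23, was at 9.98 in astragalus, 10.22 in electro-acupuncture, 10.48 in cisplatin and 10.19 in control. Scarna2, a guide for the U2 snRNA in humans with its own promoter there, was at 9.69, 9.33, 10.05 and 9.86 in the same order, lowest in electro-acupuncture. Both spanned less than 2-fold over the 4 arrays, and cisplatin was the highest in each.

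Of the dimmer members, Snora16a, in the noncoding host Snhg12, was at 6.99 in astragalus, 7.71 in electro-acupuncture, 6.89 in cisplatin and 7.79 in control. Snora78, in the noncoding host Snhg9, was at 5.44, 6.11, 5.30 and 5.81 in that order, and Snora47, within Zbed3, was at 5.88, 6.47, 6.61 and 6.67. Electro-acupuncture and control were thus the higher arrays for Snora16a and Snora78, and astragalus the lowest for Snora47. Scarna8, in the augmin complex gene Haus6, was at 6.15 in astragalus, 5.67 in electro-acupuncture, 6.17 in cisplatin and 5.62 in control. Snora2b, in the chromatin complex gene Kansl2, stayed between 5.34 and 5.61 on the 4 arrays. In all, 13 of the 24 genes (54.2%) reached 2-fold in at least 1 of the 6 comparisons, against 8.43% of all named genes and 40.9% of box C/D snoRNA genes, and 11 in none.

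Fewer of these genes reached 2-fold between astragalus and electro-acupuncture than in any other comparison, but their share was above that of all named genes. They were 2 of 24 genes (8.33%), against 1.05% of all named genes, 4.55% of box C/D snoRNA genes and 2.63% of snRNA genes. Snora20 was lower in astragalus (background 0.651%) and Snora73a was 2.03-fold higher there (background 0.401%), but by 0.81 on the log2 scale with quantile normalization and 0.78 with a loess trend removed, both under 2-fold. The median difference was -0.16, against -0.05 over all named genes. Snora69 lay just outside the line at -0.96 and passed it under both of those settings. At a line of 1.5-fold, 8 of 24 genes differed between these 2 arrays, against 8.12% of all named genes. Against cisplatin it was 9 of 24 in astragalus (10.3%) and 13 of 24 in electro-acupuncture (8.59%). Against control it was 8 of 24 in cisplatin (8.18%), 10 of 24 in astragalus (14.2%) and 11 of 24 in electro-acupuncture (12.1%). Each percentage is the share among all named genes.

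For 11 of the 24 genes (45.8%), both the astragalus and the electro-acupuncture array lay below both the cisplatin and the control array. Those were Snora20, Snora30, Snora35, Snora47, Snora68, Snora73a, Snora73b, Scarna2, Scarna6, Scarna10 and Scarna17. The share among all named genes was 17.9%, among box C/D snoRNA genes 25% (11 of 44) and among snRNA genes 58.1% (531 of 914). In the opposite order were 2 genes, Snora19 and Snora2b (8.33%), against 17.8% of all named genes. The share of the 24 genes lay between those of the box C/D and the snRNA genes, and no test of this was possible. From their human counterparts, Scarna2 and Scarna17 among the 11 are box C/D RNAs, and Scarna6 and Scarna10 carry both kinds of box. The 11 genes are thus not all purely H/ACA. The snRNA genes' median differences from cisplatin were -0.48 in astragalus and -0.42 in electro-acupuncture. Protein-coding genes had medians of -0.02 and 0.03 in these comparisons. The RNA quality, labelling and recovery of short RNAs on each array were not measured in the values used, and their part was not tested.

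**Figure D3:**
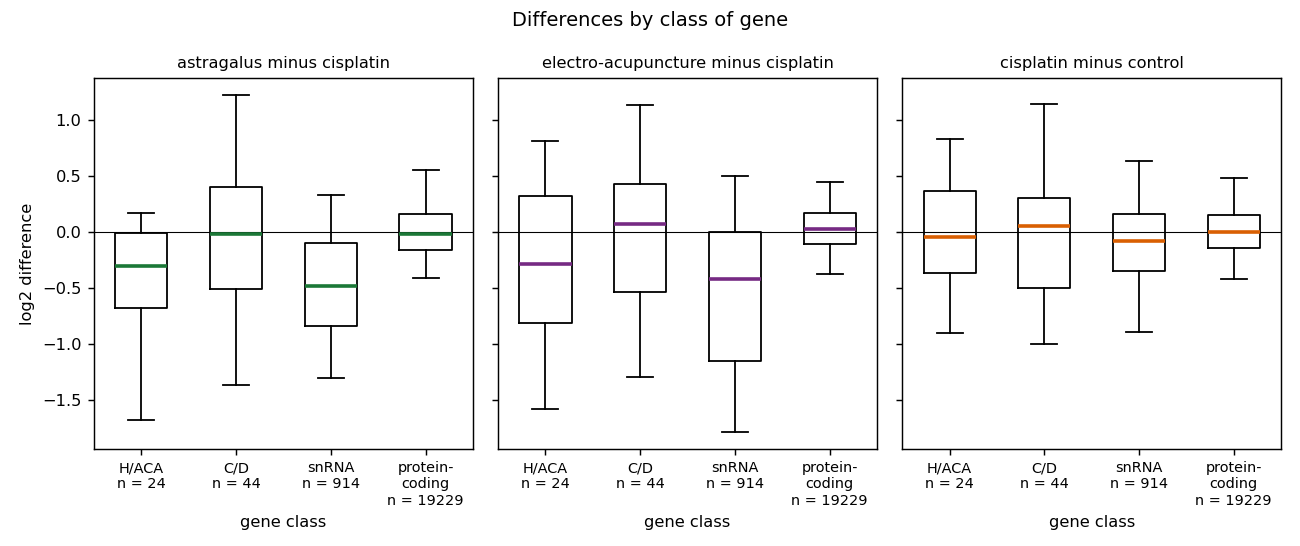
Log2 differences by class of gene for 24 H/ACA, 44 box C/D, 914 snRNA and 19229 protein-coding genes, with boxes over the quartiles, a coloured median and whiskers from the 5th to the 95th percentile. Against cisplatin the H/ACA medians of -0.30 in astragalus and -0.28 in electro-acupuncture lie between those of the C/D and the snRNA genes, and against control the cisplatin median is -0.04.

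Against cisplatin, the brighter clusters had the lower medians in both astragalus and electro-acupuncture. When the 24 genes were divided at the middle of their mean levels, 11 of the 12 brighter were lower in astragalus than in cisplatin, with a median of -0.54, and 10 of 12 were lower in electro-acupuncture, with a median of -0.74. The 12 dimmer genes had medians of -0.04 and 0.37. The 2-fold lower genes did not follow this in astragalus, where 2 of the 3 (Snora20 and Snora62) were dimmer, whereas 4 of the 5 in electro-acupuncture were brighter. All named genes at least as bright as the brighter 12 (6537 genes) had medians of 0.24 and 0.02, and the 18 box C/D genes of that brightness -0.04 and -0.23. Over the 24 genes, which share 4 arrays, Spearman's rho between mean level and difference was -0.31 for astragalus minus cisplatin and -0.36 for electro-acupuncture minus cisplatin. Annotated length, from 42 bases for Scarna9 to 248 for Scarna6, had rho of -0.08 and -0.05 with them. In cisplatin minus control the brighter 12 had the higher median, 0.085 against -0.06 in the dimmer 12. The same held in astragalus minus electro-acupuncture, with 0.055 against -0.57.

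Host genes were taken as the shortest protein-coding or long noncoding gene whose RefSeq span holds that of the small RNA; strand was not compared, since the table does not give it. Such a gene was found for 23 of 24, all but Scarna2, with 22 distinct hosts of which Snhg3 holds 2 members. A host with a cluster of its own was available for 16. For Snora31 that host, Tpt1, a tumour protein under translational control, was at 8.26 on all 4 arrays. Such equal values occurred in 485 clusters and carry no information on differences, so 15 pairs were compared. In astragalus against cisplatin the 15 hosts had a median of 0.27 and their small RNAs -0.08, and 12 of 15 small RNAs had the lower value of the pair. No host was at least 2-fold different there. In electro-acupuncture against cisplatin the medians were 0.00 for hosts and -0.16 for small RNAs, with 8 of 15 small RNAs the lower of the pair. In cisplatin against control they were 0.23 and -0.06, with Ncl the 1 host at least 2-fold different. Protein-coding genes at least as bright as the brighter 12 small RNAs had medians of 0.25, 0.03 and 0.01 in these comparisons. The hosts' median of 0.27 in astragalus is thus near that of bright genes at large, though Atg16l1, Zbed3, Snhg9 and Htr2c were dimmer than those.

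The relation of host and small RNA differences varied with the comparison. Over the 15 pairs, which share arrays, Pearson's r was -0.25 for astragalus minus cisplatin, 0.05 for electro-acupuncture minus cisplatin and 0.48 for cisplatin minus control, and 6, 8 and 8 pairs had the same direction. It was 0.25 for astragalus minus control and 0.59 for electro-acupuncture minus control, with 10 pairs in the same direction in each, and 0.32 for astragalus minus electro-acupuncture, with 5. Snora62 and its host show the gap: Rpsa was at 12.20 in astragalus, 11.99 in electro-acupuncture, 11.93 in cisplatin and 11.39 in control, while Snora62 was high in cisplatin alone. Snora31 was at 9.37 in astragalus, 9.73 in electro-acupuncture, 9.61 in cisplatin and 8.78 in control, with control the lowest.

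**Figure D4:**
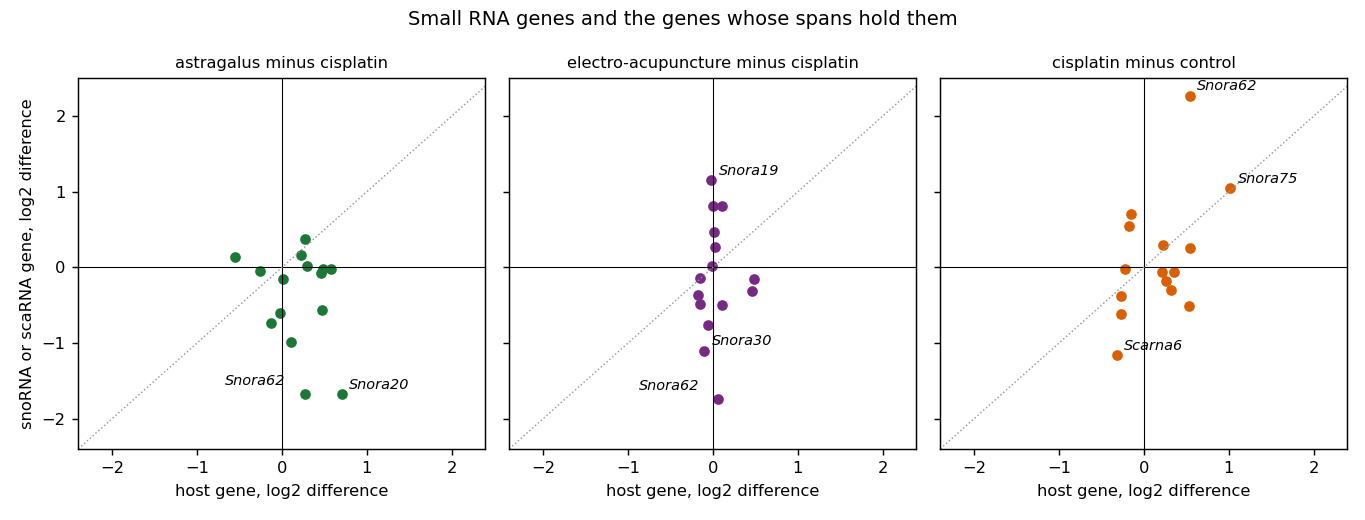
Log2 difference of 15 small RNA genes (vertical) against that of their host genes (horizontal) in 3 comparisons, with a dotted line of equal difference and names at the genes that were at least 2-fold different. The points spread far more along the vertical than along the horizontal axis, and in the astragalus panel 12 of 15 lie under the line. In that comparison protein-coding genes at least as bright as the brighter 12 small RNAs had a median of 0.25.

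The genes of the partner proteins differed from cisplatin in the opposite direction to most of the RNAs, by small amounts. All 4 core protein genes were lowest in control and higher in astragalus and electro-acupuncture than in cisplatin, though none reached 2-fold. Dkc1 was at 9.86 in astragalus, 9.74 in electro-acupuncture, 9.53 in cisplatin and 9.42 in control. Nhp2 was at 6.64, 6.89, 6.45 and 5.95 in the same order. Median differences of the 4 genes were 0.23 for astragalus and 0.25 for electro-acupuncture against cisplatin, and 0.36 for cisplatin against control. Protein-coding genes at least as bright as the brighter 12 small RNAs had medians of 0.25, 0.03 and 0.01 in these comparisons. All protein-coding genes had medians of -0.02, 0.03 and 0.00. Nop10 and Nhp2, with mean levels of 6.51 and 6.48, are dimmer than that bright set, which begins at 7.41. Neither set thus matches the 4 genes in level. Gar1 and Nop10 had differences from cisplatin of 0.20 and 0.26 in astragalus and of 0.29 and 0.11 in electro-acupuncture.

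Among the genes of assembly, 5 of 6 listed had a cluster of their own, and 4 of 5 were higher in astragalus than in cisplatin. Their median was 0.36, against 0.25 over the bright protein-coding genes and -0.02 over all protein-coding genes. Of the 5, Ruvbl1 alone was as bright as that bright set. Ruvbl1, an ATPase of the complex that assembles these particles, was at 9.44 in astragalus, 9.20 in electro-acupuncture, 9.04 in cisplatin and 8.22 in control, and was the 1 gene of this list to pass 2-fold, in astragalus over control by 1.22 on the log2 scale. In that comparison 3.49% of all named genes and 8.95% of the bright protein-coding genes were at least 2-fold higher. Naf1, which holds the place of Gar1 in early particles, was at 7.05 in astragalus, 7.35 in electro-acupuncture, 7.35 in cisplatin and 7.08 in control. Terc, the telomerase RNA, which itself ends in an H/ACA domain, was at 6.06, 6.21, 6.00 and 6.11 in the same order, and Tert, the catalytic subunit, lay between 4.64 and 4.99. The Cajal body factor Wrap53 was at 6.40 in astragalus, 6.45 in electro-acupuncture, 6.14 in cisplatin and 6.22 in control.

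Of 12 stand-alone pseudouridine synthase genes, 6 were higher and 6 lower in astragalus than in cisplatin, with a median of -0.04, and 4 were higher and 6 lower in electro-acupuncture. None was at least 2-fold different in either comparison. The genes of RNA polymerase I and its factors, which make the ribosomal RNA, were higher in 8 of 10 cases in astragalus against cisplatin (median 0.12) and in 5 of 10 in electro-acupuncture (0.02). Of the bright protein-coding genes, 81.9% were higher in astragalus than in cisplatin and 52.6% in electro-acupuncture. The shares over all protein-coding genes were 45.4% and 54.5%, and some of the RNA polymerase I genes are dimmer than the bright set. The C/D core genes Fbl, the methyltransferase fibrillarin, and Nop58 were at 10.79 and 11.89 in control, below all other arrays. Parn and Tent4b, which trim and tail the 3′ ends of such RNAs, differed from cisplatin by at most 0.22 in either the astragalus or the electro-acupuncture array.

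The 23 symbols on shared clusters cannot be read as small RNA alone. For 18 of them the cluster also lists a messenger or long noncoding RNA, as with Snora70 and Rpl10 or Snora52 and Rplp2, and the last read 8.72 on all 4 arrays. For the other 5 the partner is a microRNA gene: Scarna3a, Scarna3b, Scarna13, Snora34 and Snora36b. The cluster of Scarna13 and Mir3069 was at 7.11 in astragalus, 7.08 in electro-acupuncture, 7.78 in cisplatin and 7.57 in control. That of Scarna3a and Mir1843b was at 7.83, 8.04, 8.15 and 8.63 in the same array order. Both had the order seen for the 11 genes above, and the clusters of Scarna3b, Snora34 and Snora36b did not. The cluster of Snora36b and Mir664, whose hairpin is printed above, was at 4.77 in astragalus, 5.61 in electro-acupuncture, 5.20 in cisplatin and 5.61 in control.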

How the data were processed

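The values the authors deposited are log2 levels, 1 per transcript cluster and array. Affymetrix Expression Console is the software named, per the submitters' processing notes; its version and summary method are not stated there. The log2 scale was read from the values. Of 65956 clusters, 32750 were in the platform's gene table, 31258 with 1 gene symbol and 1492 with several, and none was named from the latter. A RefSeq gene table (assembly GRCm38.p6) supplied current symbols, renaming 1121 clusters, and gene types and spans. Members, lists and comparisons were chosen with earlier results of these data known. Arrays were compared by subtracting log2 values and counting genes at 2-fold; no test was run, as each group has 1 array. No floor was applied to members or to the background. Genes were named by rule: the 6 largest differences in each direction against cisplatin and of cisplatin against control, the 6 brightest and 4 dimmest members, the Scarna genes, copies, members at 2-fold against both other arrays, those around the 2-fold line, and the pathway genes and hosts. Hosts were placed by span alone. Alternatives were quantile scaling, removal of a loess trend, filters on low levels, cluster choice, the members counted and a 1.5-fold line. The steps, in Python 3.11.15 with pandas 2.3.3, were tested on simulated data.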

Additional observations from a re-analysis of the deposited data

Results flagged for a closer look

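In 3 of the 24 genes the astragalus and electro-acupuncture arrays lay on opposite sides of cisplatin, with the difference between them untested because each group has 1 array. The share of such genes over all named genes was not counted, so the number cannot be called unusual for these RNAs. Electro-acupuncture minus astragalus was 0.96 for Snora69, 0.55 for Snora41 and 0.36 for Snora31. Snora41, in the elongation factor gene Eef1b2, was at 6.19 in astragalus, 6.74 in electro-acupuncture, 6.27 in cisplatin and 6.01 in control. Among the 21 clusters that hold the symbols found on shared clusters alone, which enter no comparison above, 3 (14.3%) were at least 2-fold higher in astragalus than in control, against 3.49% of all named genes. Among named genes at least as bright as the brighter 12 small RNAs the share was 14.2%. Some of the 21 clusters, that of Snora34 and Mir1291 included, are dimmer than those genes. Neither set is matched to the clusters in level, so the shares do not tell if 14.3% is an excess. The cluster of Snora34 and Mir1291 was 1.41 higher on the log2 scale, at 6.12 in astragalus, 4.78 in electro-acupuncture, 5.69 in cisplatin and 4.71 in control. The cluster of Snora70 with Rpl10 and Gm5621 was 1.24 higher and that of Snora15 with Cct6a 1.02 higher, both with a messenger RNA among the genes listed.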

How the results depend on the processing

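No paired analysis was possible because each group has 1 array. The number of 2-fold genes stayed within 1.5 times in 45 of 54 recomputed counts, and the median stayed within 0.1 in 37 of 48. No median beyond 0.1 turned its direction. These tallies include settings that could hardly change a value. The mean of a gene's clusters and the other Snora73b cluster alter Snora73b alone, and the filter at the median level drops Snora35 alone. A steady count can hide other genes: Snora73a lost its call in astragalus minus electro-acupuncture under both rescalings, where Snora69 gained one, and quantile normalization took Snora73b (-0.93) from electro-acupuncture minus cisplatin and put Snora30 (-1.14) into astragalus minus cisplatin. With the loess trend on level removed, astragalus minus cisplatin gave 7 genes in place of 4 and medians of -0.61 against cisplatin, -0.50 against control and -0.27 against electro-acupuncture; quantile normalization gave -0.48 and -0.39 for the first 2. The 17 members at or above the 75th percentile of level had medians of -0.44 (astragalus minus cisplatin), -0.36 (astragalus minus control) and -0.46 (electro-acupuncture minus control). Without the Scarna members, electro-acupuncture had medians of -0.15 against cisplatin and -0.025 against control, with 4 genes in place of 7 against control, and astragalus had 2 in place of 4 against control. Without the 3 box C/D scaRNAs, a choice made after seeing the data, the last median was -0.08. At 1.5-fold the counts were 8 (cisplatin minus control), 9 and 13 (astragalus and electro-acupuncture minus cisplatin), 10 and 11 (the same minus control) and 8 (astragalus minus electro-acupuncture). The cause of these shifts was not tested, beyond the smaller sets and the lower threshold. The other Snora73b cluster, also chosen after seeing the data, and the mean of a gene's clusters moved no count or median past these limits.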
